A study of Mus musculus with 6 samples.

Results

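The SOCS family genes Socs1, Socs2, Socs3 and Cish were followed in activated mouse helper T cells that had or lacked the miR-17-92 microRNA cluster. These 4 members were chosen by name. The array's annotation gives each as the only symbol of a probe set, as it does for 12393 genes, Socs4 to Socs7 among them. The members were measured by 7 of the 22690 probe sets, and the brightest set by its mean over the 6 arrays represents a gene. The CD4+CD25- T cells had been flow sorted, stimulated with plate-bound anti-CD3 and anti-CD28, transduced with a retrovirus, and taken for total RNA 5 days later. The 6 arrays made 3 groups of 2 biological replicates, and each array read the biotin-labelled target of 1 sample. The wild-type mock group was WT B6 cells with the empty vector. The deficient mock group was miR-17-92f/f CD4-cre+ cells of the same background with the empty vector, and the deficient miR-17 group was cells of that genotype with a vector overexpressing miR-17. The Cre of the deficient cells is driven by Cd4 regulatory sequence, which deletes the floxed cluster in the T lineage. The labels do not give the age or sex of the mice, whether the wild-type mice carried Cre, or whether transduced cells were separated from the others. All values are log2 probe set intensities, on which 1 unit is a doubling.

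SOCS proteins are feedback inhibitors of cytokine signalling. A cytokine bound to its receptor activates JAK kinases, which phosphorylate STAT transcription factors, and the STATs switch on SOCS genes among their targets. The SOCS proteins then bind the receptor or the kinase through an SH2 domain and recruit a ubiquitin ligase through the SOCS box, and Socs1 and Socs3 can also block the kinase directly. In helper T cells Cish and Socs2 are known as genes induced by STAT5 after interleukin 2, Socs3 is induced by STAT3 cytokines such as interleukin 6, and Socs1 restrains interferon gamma and interleukin 2 signals.

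The microRNAs at issue come from 1 cluster on chromosome 14. Their mature forms are shown, from RefSeq on GRCm38.p6, because the deletion covers all of them and only miR-17 was returned. Transcripts of the cluster are not analysed here, which leaves the deletion unchecked. The seed, bases 2 to 8, which pairs with targets, is in capitals.
miR-17-5p: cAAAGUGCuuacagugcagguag
miR-20a-5p: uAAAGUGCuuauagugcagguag
miR-18a-5p: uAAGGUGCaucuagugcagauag
miR-19a-3p: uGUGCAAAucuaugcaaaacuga
miR-19b-3p: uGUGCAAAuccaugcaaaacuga
miR-92a-3p: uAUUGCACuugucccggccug
The 6 microRNAs carry 4 different seeds. The returned miR-17-5p, at chr14:115043684-115043706 on the plus strand, shares its seed with miR-20a-5p, whereas miR-18a, the miR-19 pair and miR-92a have other seeds. Target sites in the transcripts of the 4 genes were not analysed here.

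Windows of 300 bases at the annotated start, 250 before it and 50 from it on, were given for 3 of the 4 genes in the RefSeq table (GRCm38.p6). They were searched on both strands for TTCNNNGAA, the letters of a STAT dimer site, and GAAA followed after any 2 bases by GAAA, the letters of an interferon regulatory factor site. The stretches of 30 bases that held matches are shown, in the direction of the gene with matches in capitals, because STATs and interferon regulatory factors are known inducers of SOCS genes.
Cish: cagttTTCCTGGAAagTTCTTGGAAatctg
Socs3: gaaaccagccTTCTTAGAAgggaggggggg
Socs1: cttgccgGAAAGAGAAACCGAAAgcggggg
The Cish stretch, chr9:107296654-107296683 on the plus strand, held 2 matches to the STAT letters, the first of them beginning at the annotated start. The Socs3 stretch, chr11:117969501-117969530 on the minus strand, held 1, which began at position -154 from the start. The Socs1 stretch, chr16:10785597-10785626 on the minus strand, held 2 overlapping matches to the interferon factor letters, and the Socs1 window held 0 of the STAT letters. Of all 32851 windows in the table, 8.3% held TTCNNNGAA and 3.44% held the paired GAAA. A match describes the letters only.

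The labelled cell type was checked first. The 6 CD4 T cell markers Cd3e, Cd3d, Cd3g, Cd4, Cd28 and Thy1 had array means between 10.32 and 10.81. Markers of NK cells, macrophages and monocytes, dendritic cells and regulatory T cells had array means between 3.19 and 4.50, against an array median of 5.71 to 5.76. Those of CD8 T cells lay between 5.02 and 5.38 and those of B cells between 4.85 and 5.68. Single markers of these lists read above the array median on some arrays. These were Csf1r (5.63 to 5.95), Cd8b1 (5.42 to 6.21), Ms4a1 (5.03 to 6.26) and Cd22 (5.00 to 5.78). The CD4 T cell marker mean was 10.73 to 10.81 on the wild-type arrays and 10.32 to 10.49 on the 4 deficient arrays, and Thy1 was lower in deficient mock cells (-0.73, limma adjusted p = 0.0137). The 24 probe sets of the poly-A controls, bacterial transcripts used to follow labelling, were all lower in deficient mock than in wild-type mock cells, by a mean of -0.57, and by a mean of -0.54 in deficient miR-17 cells. Their part in the results below was not tested. The arrays of a group correlated over all probe sets at r = 0.994 to 0.995, and array number limits the precision.

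All 7 probe sets read above the array median on every array. In bulk samples, fewer cells expressing a gene and less RNA per cell cannot be told apart. The limma p-values set a difference against the spread between these samples. That spread is pooled over the 3 groups and drawn toward the spread of all genes.

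Socs2, which restrains growth hormone and other STAT5 signals, read 9.78 and 10.45 in wild-type mock cells, 10.63 and 11.12 in deficient mock cells, and 10.97 and 11.40 in deficient miR-17 cells. Both groups of deficient cells lay above both wild-type arrays, and the deficient groups overlapped each other. The means were 10.11 ± 0.47, 10.87 ± 0.34 and 11.19 ± 0.31 (SD, n = 2 each). Deficient mock exceeded wild-type mock by 0.76 ± 0.25 log2 units (SE), a ratio of 1.69, which did not pass limma (adjusted p = 0.122). Deficient miR-17 cells exceeded wild-type mock cells by 1.07 ± 0.25, a ratio of 2.10, which passed (limma adjusted p = 0.0453). This call ended without wild-type mock replicate 1 (0.74, limma adjusted p = 0.219), and likewise when deficient miR-17 replicate 2 was left out (0.85, limma adjusted p = 0.242). The other probe set of Socs2, of a kind that can match related transcripts, gave differences of 0.92 and 1.30 in the same comparisons.

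Socs3, the inhibitor that binds the shared interleukin 6 receptor chain, ran the other way. It read 10.05 and 9.13 in wild-type mock cells, 9.00 and 8.60 in deficient mock cells, and 8.55 and 8.18 in deficient miR-17 cells. On this probe set, which stands for the gene, the 3 groups did not overlap one another, with wild-type mock highest and deficient miR-17 lowest. The gap between neighbours was smallest, 8.60 against 8.55, for the deficient groups. The means were 9.59 ± 0.65, 8.80 ± 0.29 and 8.36 ± 0.26 (SD, n = 2 each). Deficient mock differed from wild-type mock by -0.79 ± 0.29 (SE), a wild-type to deficient ratio of 1.73, which did not pass (limma adjusted p = 0.156). Without wild-type mock replicate 2 that difference was -1.25 and passed (limma adjusted p = 0.0413), and without wild-type mock replicate 1 it was -0.33. Deficient miR-17 cells were lower than wild-type mock cells by -1.22 ± 0.29, a wild-type to deficient ratio of 2.34 (limma adjusted p = 0.0462). That call lay close to the threshold and was kept in 1 of the 6 fits on 5 arrays, with differences of -1.68 to -0.77. It was lost when wild-type mock replicate 1 (-0.77), either deficient mock array (-1.22 each) or either deficient miR-17 array (-1.41 and -1.04) was left out. The other probe sets of Socs3 gave -1.19 and -1.24 in this comparison, with limma adjusted p of 0.0659 and 0.0693 over probe sets. On each of them the deficient groups overlapped. Deficient mock replicate 2 read 8.222 and 7.703 there, below deficient miR-17 replicate 1 at 8.396 and 7.708. The set that stands for Socs3 is of the kind whose probes can match other sequences, whereas the set that gave -1.24 is not.

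Socs1, the inhibitor of JAK kinases downstream of interferons and interleukin 2, varied less. It read 7.84 and 8.06 in wild-type mock cells, 8.24 and 8.59 in deficient mock cells, and 8.13 and 8.50 in deficient miR-17 cells. Both deficient groups lay above the wild-type arrays, and they overlapped each other. The means were 7.95 ± 0.16, 8.41 ± 0.25 and 8.32 ± 0.26 (SD, n = 2 each). The difference of deficient mock from wild-type mock, 0.46 ± 0.17 (SE), did not pass (limma adjusted p = 0.162), nor did that of deficient miR-17 from wild-type mock, 0.37 ± 0.17 (limma adjusted p = 0.258).

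Cish, the founding member, which acts on STAT5 and T cell receptor signals, had the closest group means of the 4 genes, at 10.77 ± 0.015, 10.65 ± 0.24 and 10.77 ± 0.0031 (SD, n = 2 each). It read 10.76 and 10.78 in wild-type mock cells, 10.48 and 10.82 in deficient mock cells, and 10.76 and 10.77 in deficient miR-17 cells. The 2 deficient mock arrays enclosed the other 4. Deficient mock differed from wild-type mock by -0.12 ± 0.11 (SE, limma adjusted p = 0.617), with a 95% interval of -0.38 to 0.14. Deficient miR-17 differed from wild-type mock by -0.01 ± 0.11 (limma adjusted p = 0.978), with an interval of -0.27 to 0.25.

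**Figure D1:**
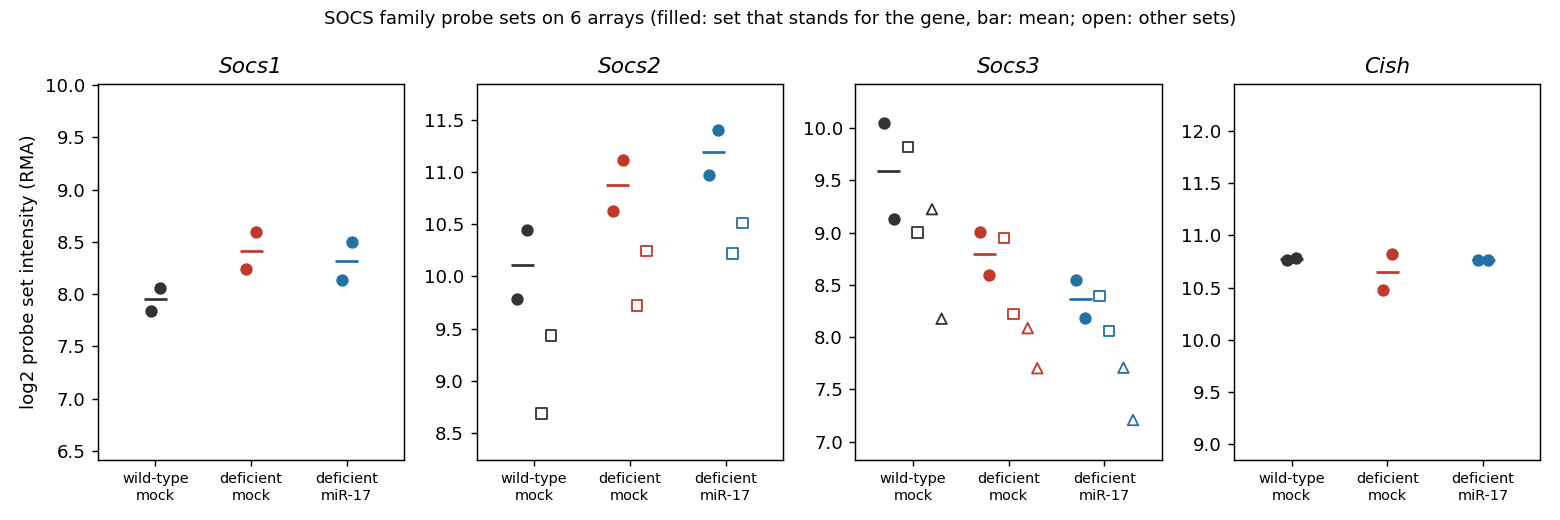
Log2 probe set intensity (y axis, spanning 3.6 units in each panel) of the 7 probe sets of Socs1, Socs2, Socs3 and Cish on the 6 arrays, by group (x axis). Filled points are the set that stands for the gene, bars its group mean, and open points the other sets. Socs2 lies higher and Socs3 lower on all 4 deficient arrays than on the wild-type arrays, and Cish lies between 10.48 and 10.82.

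Deficient mock was first compared with wild-type mock, which asks what differs when the cluster is missing. Without a term for the replicate number, 0 of the 4 genes passed limma over all genes, and 3 had an unadjusted p under 0.05 (Socs1 0.0274, Socs2 0.0163 and Socs3 0.0255). Among all genes 810, or 6.54%, were called (3.74% higher and 2.79% lower), and 21.6% had an unadjusted p under 0.05. With that number as a block, Socs1, Socs2 and Socs3 passed (limma adjusted p = 0.00524, 0.000685 and 0.00552), where 22.0% of all genes were called; the labels do not say whether a number marks a shared animal or day. The groups did not overlap for Socs1, Socs2 and Socs3, as for 49.9% of all genes. The absolute difference of Socs3 was exceeded by 3.22% of all genes, that of Socs2 by 3.51%, that of Socs1 by 11.5% and that of Cish by 58.3%. Socs1 and Socs2 lay above 0 and Socs3 below it, and Cish, at -0.12, had the opposite sign without deficient mock replicate 1 (0.050). The median of the 4 genes was 0.17 against -0.03 for all genes.

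The comparison of deficient miR-17 with deficient mock asks what miR-17 alone changes. The study's design looks for targets of miR-17 that are higher without the cluster and lower when miR-17 is returned. Without the replicate block, 0 of the 4 genes passed limma and 0 had an unadjusted p under 0.05. Of all genes 0 (0%) were called, with 487 genes (3.93%) at an unadjusted p under 0.05. With the block 38 of all genes (0.307%) and 0 of the 4 were called. The unadjusted limma p was then 0.00244 for Socs2 and 0.0113 for Socs3. Socs1 had the signs the design looks for, 0.46 and then -0.10 ± 0.17 (95% interval -0.50 to 0.30). Neither difference passed without the replicate block, and with it only the first did (limma adjusted p = 0.00524). With single arrays left out, the second spanned -0.28 to 0.085, so its sign depended on which array was left out. Between arrays of the same replicate number it was -0.11 and -0.09. Socs2 differed by 0.31 ± 0.25 (interval -0.27 to 0.89), Socs3 by -0.44 ± 0.29 (interval -1.10 to 0.23) and Cish by 0.11 ± 0.11 (interval -0.15 to 0.37). The Socs2 and Socs3 means with miR-17 were farther from the wild-type means than those with the empty vector, but neither difference passed and the Socs2 readings of the 2 groups overlapped. Both comparisons use the deficient mock arrays, so the 2 are not independent. The groups did not overlap for Socs3 alone of the 4, as for 28.9% of all genes. That holds for the set that stands for Socs3, whereas on its other probe sets these groups overlapped.

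The third comparison, deficient miR-17 against wild-type mock, asks what stays different with miR-17 present, and it shares arrays with both others. Socs2 rose and Socs3 fell, with the values and limits given above, where 843 genes (6.80%) were called, 4.03% of all genes higher and 2.77% lower. The groups did not overlap for Socs1, Socs2 and Socs3, as for 50.4% of all genes. The absolute difference of Socs3 was exceeded by 0.839% of all genes and that of Socs2 by 1.32%. With the replicate block Socs1 also passed (0.37, limma adjusted p = 0.0124), where 24.1% of all genes were called. Whether the Socs2 and Socs3 differences are larger than those of the first comparison is what the second comparison tests, and neither gene passed there. Without the replicate block its limma intervals were wide and spanned both signs (-0.27 to 0.89 for Socs2 and -1.10 to 0.23 for Socs3). With the block Socs2 differed by 0.31 ± 0.07 and Socs3 by -0.44 ± 0.13 (SE), with limma adjusted p of 0.157 and 0.277. Between arrays of the same replicate number, Socs2 differed by 0.34 and 0.29 and Socs3 by -0.46 and -0.41. Neither fit called either gene, so the second comparison does not decide whether the differences are larger.

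**Figure D2:**
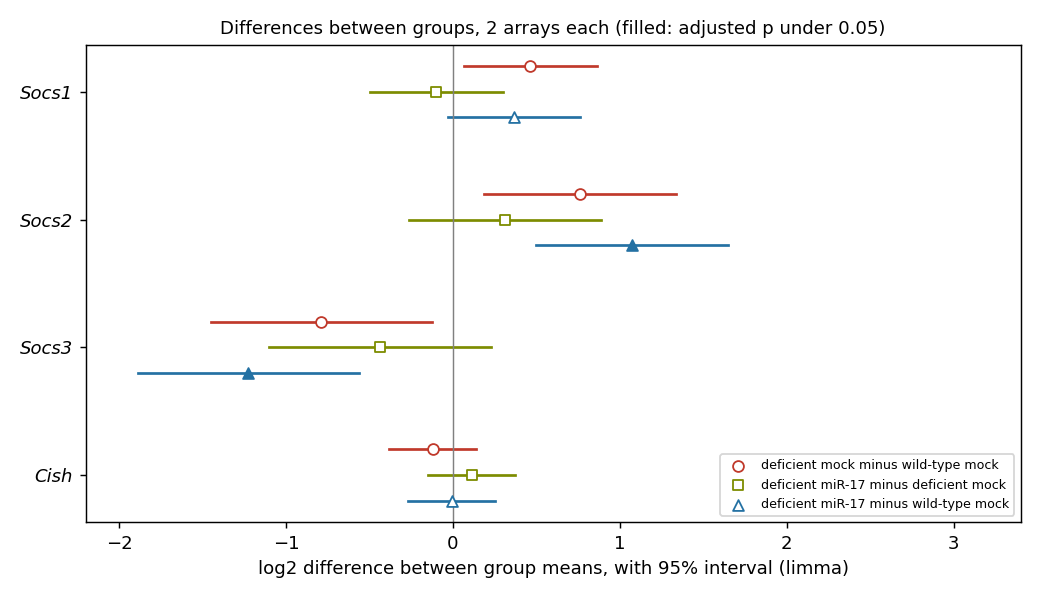
Difference in mean log2 intensity (x axis) for each of the 4 genes (y axis) in the 3 comparisons, with the 95% interval of the limma fit and 2 arrays per group. Filled symbols mark an adjusted p under 0.05, which Socs2 (1.07) and Socs3 (-1.22) reached in deficient miR-17 against wild-type mock and no other value shown did.

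Socs2 and Socs3 mirrored each other over the 6 arrays (Pearson r = -0.99, n = 6 arrays in 3 groups). Inside each group it was replicate 2 that had more Socs2 and less Socs3. The gaps were 0.67 and -0.91 in wild-type mock, 0.49 and -0.41 in deficient mock, and 0.44 and -0.36 in deficient miR-17 cells. Replicate differences correlated over genes at 0.43 to 0.63 between groups, so the 3 groups do not give separate evidence of a mirror image. The wild-type gap in Socs3 between replicates, 0.91, was larger than the difference between the deficient mock and wild-type mock means. Socs1 followed Socs2 (r = 0.89) and opposed Socs3 (r = -0.83), whereas Cish had r between -0.11 and 0.14 with the others. These correlations describe 6 arrays that share groups and normalization.

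**Figure D3:**
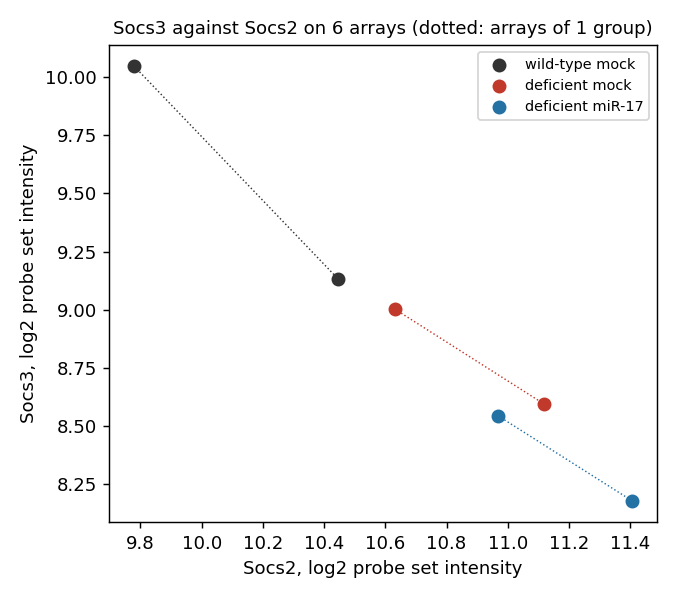
Socs3 (y axis) against Socs2 (x axis), log2 intensity, 1 point per array, with dotted lines joining the 2 arrays of a group. The points run from a wild-type array at 9.78 and 10.05 to a deficient miR-17 array at 11.40 and 8.18, and each dotted line falls from left to right.

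Genes with the most similar pattern over the 6 arrays were sought among those with a mean of at least 6 log2 units. For Socs3 they were Gpnmb, a membrane glycoprotein gene (r = 0.998), Sh2d2a, which encodes a T cell adapter (r = 0.991), and Samhd1, which encodes a nucleotide-cleaving restriction factor (r = 0.991). For Socs2 they were Rfc1, the large subunit of the clamp loader of DNA replication (r = 0.999), Rab5if (r = 0.998) and the mitochondrial ribosome gene Mrps28 (r = 0.998). Socs1 was closest to Brcc3, a deubiquitinase gene (r = 0.996), Mrps11, also of the mitochondrial ribosome (r = 0.996), and the small GTPase gene Rac1 (r = 0.995). Cish was closest to Ppp2r1a, a scaffold of protein phosphatase 2A (r = 0.979), Marveld1 (r = 0.973) and Tmem184b (r = 0.971). None of these 12 genes was called in deficient mock against wild-type mock (limma adjusted p of 0.108 to 0.843). Each was picked as the highest of 6434 values of r over 6 arrays.

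Cytokines that signal through JAKs lie upstream of the SOCS genes. Of 14 measured, 1 was higher, 4 lower and 9 did not pass in deficient mock against wild-type mock, with a median of -0.08. Il2, the growth factor that acts through STAT5, rose by 2.63 ± 0.54 (limma adjusted p = 0.0317), from 5.02 and 5.39 to 7.34 and 8.34, and Cish and Socs2, its known STAT5 targets, differed by -0.12 and 0.76. Il10, an activator of STAT3, read 8.32 and 8.01 on the wild-type arrays and 3.69 and 3.47 in deficient mock cells. The wild-type readings lie above the array median (5.71 to 5.76), and the deficient ones under each array's lower quartile (3.99 to 4.17), near background. The difference was -4.59 ± 0.18 (limma adjusted p = 0.000135), and the readings near background limit how well its size is measured. The type 2 cytokine genes Il13 (-2.26 ± 0.37), Il4 (-1.79 ± 0.34) and Il5 (-1.26 ± 0.23, with a deficient mean of 3.82, also below that quartile) were lower. The calls of Il2, Il4, Il5 and Il13 were each lost in 2 or more of the 4 fits made without 1 array of these groups (Il2 in each, Il4 without either wild-type array, Il5 and Il13 without either deficient array), and Il10 kept its call in all 4.

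Of 18 receptor chains measured, 5 were lower, 0 higher and 13 passed in neither direction, and 13 lay below 0 (median -0.32). Il7r, the interleukin 7 receptor chain, fell by -1.36 ± 0.09, from 10.94 and 10.74 to 9.49 and 9.47, and kept its call in all 4 fits. Il4ra (-0.84 ± 0.12), Il12rb2 (-1.09 ± 0.17), Il21r (-0.58 ± 0.12) and Il27ra (-0.69 ± 0.15) were the others, and each lost its call in 3 or 4 of those fits. Il2ra and Il2rb, the chains specific to interleukin 2 and 15 signalling, read 9.76 to 10.37 and 10.23 to 10.51 over all 6 arrays.

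Of 10 JAK kinases and STAT factors measured, 4 were lower, 0 higher and 6 passed in neither direction, and 9 lay below 0 (median -0.42). Stat5b, which with Stat5a carries the interleukin 2 signal to Cish and Socs2, read 9.31 and 9.32 in wild-type mock cells and 8.79 and 8.78 in deficient mock cells (-0.53 ± 0.09, limma adjusted p = 0.0194). Stat5a read 8.82 and 8.67 against 8.12 and 8.17 (-0.60 ± 0.10, limma adjusted p = 0.0209). Stat3, the main inducer of Socs3, read 9.55 and 9.38 against 8.85 and 8.68 (-0.70 ± 0.13, limma adjusted p = 0.0250). Stat4, the interleukin 12 transducer, was lower by -0.89 ± 0.10 and was called in all 4 such fits, whereas Stat3 and Stat5b were called in 0 of them and Stat5a in 1.

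Targets of the STATs other than the SOCS genes were counted by factor. Of 5 measured STAT3 targets, 3 were lower, 0 higher and 2 did not pass (median -0.85): Batf (-1.50 ± 0.14), Junb (-0.85 ± 0.10) and Bcl3 (-0.87 ± 0.18). Of 8 STAT5 targets, 1 was higher, 0 were lower and 7 did not pass (median 0.07), the higher one being the growth regulator Myc (1.12 ± 0.21). Of 3 STAT6 targets, 0 were higher and 2 were lower, the Th2 regulator Gata3 (-0.74 ± 0.15) and Il4ra. Batf kept its call in all 4 fits. Junb lost it without wild-type mock replicate 1, Myc without that array or deficient mock replicate 2, and Bcl3 and Gata3 lost it in each. Of all genes 6.54% were called. The list members were chosen with earlier results of these data known, so their shares cannot be judged against that value. The lists were not tested as sets.

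Of the other SOCS genes, Socs4 differed by 0.30 ± 0.15, Socs5 by -0.19 ± 0.16, Socs6 by 0.14 ± 0.13 and Socs7 by 0.04 ± 0.13 in deficient mock against wild-type mock (limma adjusted p of 0.329 to 0.896). Of 3 measured parts of the SOCS box ubiquitin ligase, Eloc, one of the elongins that hold the box, differed by 0.29 ± 0.08 (limma adjusted p = 0.0818), Elob by 0.11 ± 0.08 and Rnf7 by 0.04 ± 0.09. Among 11 other inhibitors of JAK-STAT signalling, which include the PIAS proteins and phosphatases, limma called 0. The phosphatase gene Ptpn2 differed by -0.31 ± 0.08 (limma adjusted p = 0.0566). Usp18, which shuts off the type I interferon receptor, had the largest difference of the 11, at 1.99 ± 0.58 (limma adjusted p = 0.0915). It read 6.93 and 6.56 in wild-type mock cells, 7.99 and 9.48 in deficient mock cells, and 7.55 and 9.19 with miR-17. Ptpn2 and Usp18 were named after their values were seen. With the replicate block, 5 of the 11 (3 higher, 2 lower), Ptpn2 and Usp18 among them, and Eloc were called (limma adjusted p of 0.00788, 0.0142 and 0.0135 for Ptpn2, Usp18 and Eloc). That fit called 22.0% of all genes.

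Between deficient miR-17 and deficient mock cells limma called 0 genes of these lists, as of all genes, and with the replicate block it called Jak1 of these lists (-0.53, limma adjusted p = 0.0339) and 0.307% of all genes. The medians were 0.20 for the 8 STAT5 targets and 0.10 for the 5 STAT3 targets, against 0.00 for all genes. The JAK and STAT median was -0.02 and that of the receptor chains -0.04. Against wild-type mock, deficient miR-17 cells had 7 lower receptor chains of 18, 4 lower JAK and STAT genes of 10 and 4 lower STAT3 targets of 5, with 0 higher in each, where 6.80% of all genes were called. Of 14 cytokines 1 was higher and 5 were lower in that comparison. Of 8 STAT5 targets 1 was higher and 0 lower, and of 3 STAT6 targets 0 were higher and 1 lower. Of the 24 list genes called there, Socs2 and Socs3 included, 6 kept the call whichever array of the 2 groups was left out.

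**Figure D4:**
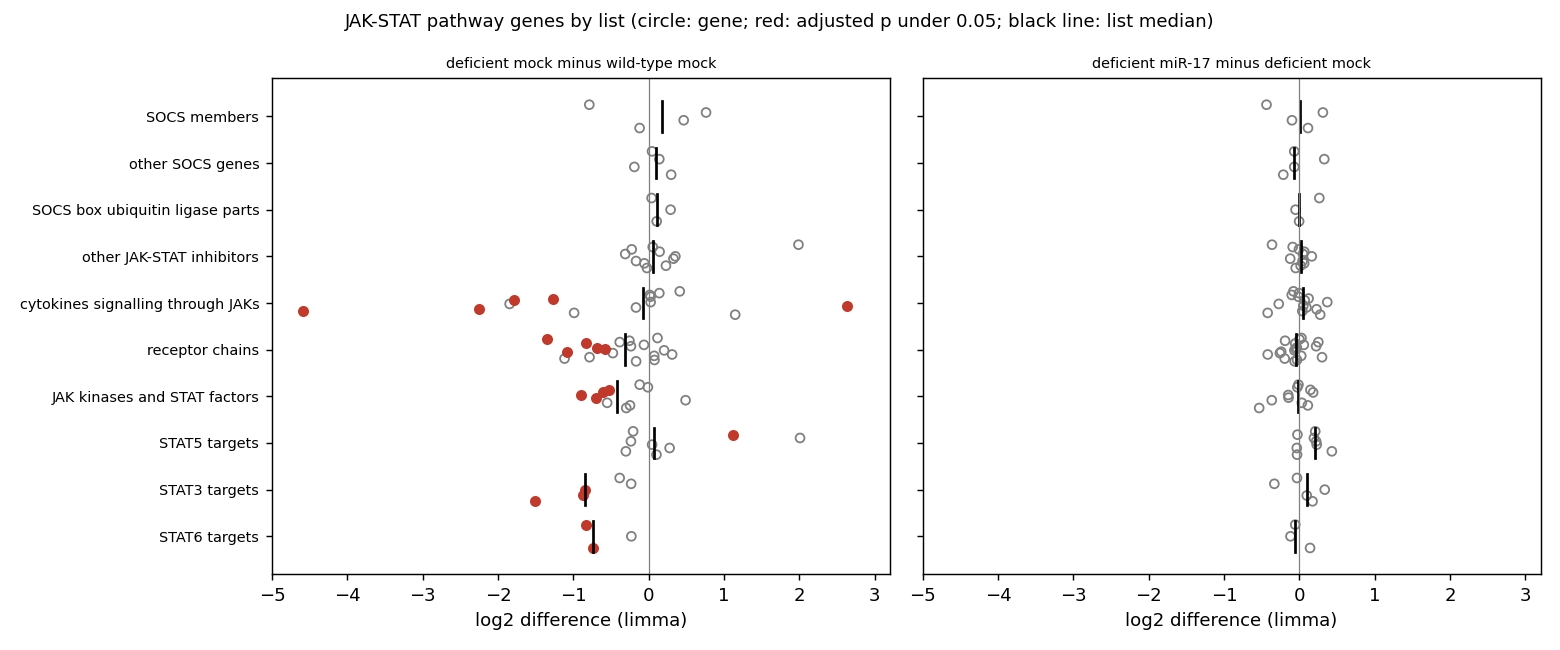
Log2 difference (x axis) of each measured gene of the 10 JAK-STAT lists (y axis) in deficient mock against wild-type mock cells (left) and deficient miR-17 against deficient mock cells (right). Red circles have a limma adjusted p under 0.05 and black lines are list medians. The left panel holds called genes among cytokines, receptor chains, JAK and STAT genes and STAT targets, and the right panel holds 0.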

How the data were processed

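The authors deposited log2 intensities per probe set, summarised by RMA according to the submitters' processing notes (version not given). RMA's quantile step hides a change shared by most transcripts. The log base was taken from RMA's convention and the values' range. Probe sets with 1 symbol (20380) were reduced to 12393 genes by the highest mean. All 6 arrays were fitted with limma 3.58.1 in R 4.3.3 (lmFit, contrasts.fit, eBayes with trend; 3 residual and 4.69 prior degrees of freedom), with Benjamini-Hochberg adjustment over all genes per comparison and calls at an adjusted p under 0.05. An exact permutation test of 2 against 2 arrays cannot go below p = 0.333. The procedure was tested on simulated data. The members and lists were chosen with earlier results of these data known. Named list genes were called ones, at most 4 a list by p, plus any needed to account for a count. Each member's 3 closest genes by r left out predicted genes. Lists covered other SOCS genes, ligase parts, other inhibitors, cytokines, receptors, JAKs and STATs, and targets of STAT3, STAT5 and STAT6, and 1 more that is not reported here. Figures used matplotlib 3.10.9. Alternatives tried were probe set summary, dim genes left out (no group mean of 5), cyclic loess, eBayes without trend, a replicate term, fits of 2 groups, and each array left out.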

Additional observations from a re-analysis of the deposited data

How the results depend on the processing

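Each alternative was run for the differences of the 4 SOCS genes and the counts of called genes. In deficient miR-17 against wild-type mock, Socs3 lost its call with the mean of probe sets (-1.22), with cyclic loess (-1.34), without trend (-1.22), with only those groups fitted (-1.22) and with its other probe sets (-1.19 and -1.24). Socs2 lost it without trend (1.07), where 508 genes were called. With a replicate block, 2723, 38 and 2983 genes were called in the 3 comparisons. Socs1 (0.46, limma adjusted p = 0.00524), Socs2 (0.76, limma adjusted p = 0.000685) and Socs3 (-0.79, limma adjusted p = 0.00552) were then called in deficient mock against wild-type mock, and Socs1 (0.37) in deficient miR-17 against wild-type mock. The block changed no other call of the 4 genes, and of Socs4 to Socs7 it called Socs6 in the third comparison (0.47, limma adjusted p = 0.0131). In the first it called 10 receptor chains (1 higher, 9 lower) and 3 STAT5 targets (all higher). Replicate differences correlated over genes at 0.43 to 0.63 between groups, but the labels tie the 2 numbers to no shared animal or day. Leaving out single arrays gave 95 (deficient mock replicate 2) to 693 called genes in the first comparison, 0 in the second and 74 (deficient miR-17 replicate 2) to 697 in the third, and without wild-type mock replicate 1 those counts were 101 in the first and 105 in the third. In the first, Socs3 spanned -1.25 to -0.33 and Cish -0.29 to 0.050. In the second, Socs1 spanned -0.28 to 0.085 and Cish -0.056 to 0.28. In the third, Socs2 spanned 0.74 to 1.41, Socs3 -1.68 to -0.77 and Cish -0.017 to 0.0033. Counts of called list members stayed within 1.5 times in 311 of 390 refits. A count of 0 in both fits was taken as unchanged, and the main fit called 0 genes in the second comparison. The share therefore says little about lists with calls.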
